A study of Ovis aries with 12 samples.

Results

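ENSBTAG00000006541 and ENSBTAG00000006790 are a pair of genes, out of 24616 in the deposited count files, that were chosen because their counts stood far higher in high-fertility than in low-fertility Co libraries of a sheep fertility study. The values that chose them are the Co-H against Co-L differences, so those differences are given here as a description and carry no test. Both genes passed the filter on low counts, which left 14839 genes, and ENSBTAG00000006541 and ENSBTAG00000006790 are the whole of the set. The identifiers are cattle gene identifiers. The files do not pair them with names, and 0 of the 24616 had an entry in the sheep gene table at hand, so what either gene encodes is not stated.

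The study sequenced RNA from flash-frozen sheep reproductive tissue in 12 libraries, 3 each for Co and T tissue of low (L) and of high (H) labelled fertility. The 3 Co-L libraries, Co-H 1 and Co-H 2 were labelled ovary, Co-H 3 was labelled corpus luteum, and the 6 T libraries were labelled endometrium, while every Co file is headed CL. The sources used here do not give the breed, age, cycle stage or treatment of the animals, or what Co and T abbreviate. The design text calls the samples pooled and mentions control and treatment samples without assigning them. Whether a group's 3 libraries stem from different animals is not said, so the spread behind the p-values is only that of these samples and may be technical.

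The corpus luteum is the temporary gland that forms from the ovulated follicle. It secretes progesterone, which prepares the endometrium, the lining of the uterus, for an embryo, and it regresses when no pregnancy follows. Ovarian tissue as a whole also holds follicles at many stages, stroma and vessels, so its RNA depends on which structures and which cycle stage a piece contains. In bulk tissue, more cells of a type and more RNA per cell cannot be told apart. With no gene names, the labelled tissues could not be checked against marker genes here.

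Total counts ran from 12665680 to 17852552 reads per Co library and from 9627378 to 13934369 per T library. Co-H 2 and Co-H 3 differed from the other Co libraries in scaling and in genes detected. Their library scaling factors (TMM, the trimmed mean of M values) were 0.977 and 1.00, against 0.745 to 0.864 in the other 4, and they held 17091 and 17014 genes with a count, against 15935 to 16609. Across genes, Co-L 3 was the farthest of the 6, with a Pearson's r of 0.899 to 0.946 with the others. The closest library to Co-H 1 was Co-L 1 (r 0.982), and the closest to Co-H 2 was Co-H 3 (r 0.981). The part of these differences in the results was not tested.

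The level of ENSBTAG00000006541 was high in Co-H 2 and Co-H 3 and low in the 10 other libraries. Its counts were 18, 15 and 5 reads in Co-L 1, 2 and 3, and 15, 655 and 476 reads in Co-H 1, 2 and 3. Scaled to the library, this was 1.24, 1.13 and 0.489 CPM (the count scaled to 1e+06 reads of the library after TMM adjustment) in the Co-L libraries, and 1.40, 37.6 and 37.5 CPM in the Co-H libraries. Co-H 1 thus lay beside the low-fertility libraries, and the high-fertility mean rested on the other 2.

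ENSBTAG00000006790 showed the same pattern at higher counts. It had 34, 25 and 14 reads in Co-L 1, 2 and 3, and 31, 1128 and 816 reads in Co-H 1, 2 and 3. Its levels were 2.35, 1.89 and 1.37 CPM in Co-L, and 2.89, 64.7 and 64.3 CPM in Co-H. Again Co-H 2 and Co-H 3 were high and Co-H 1 was not.

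**Figure D1:**
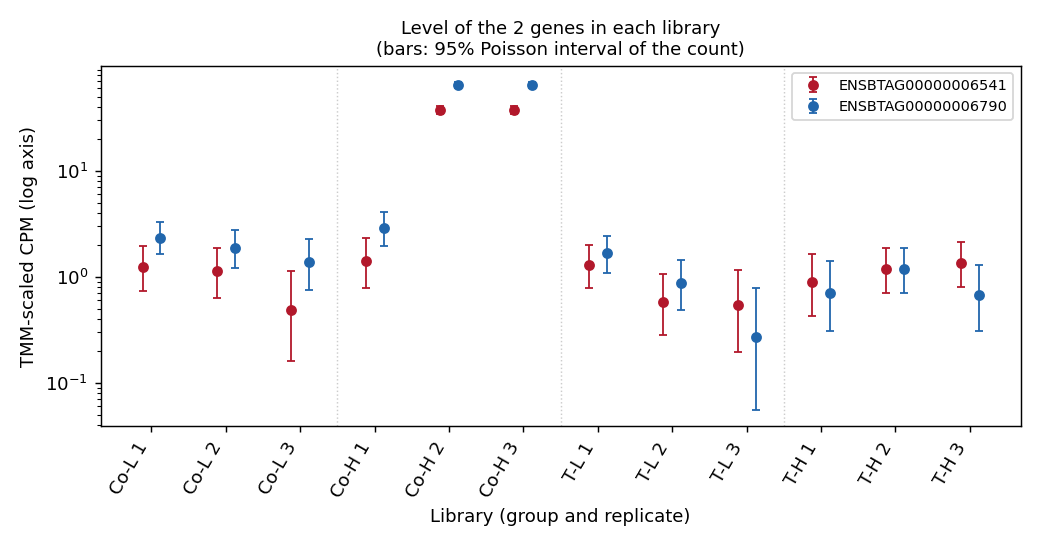
Level of each gene in the 12 libraries, in TMM-scaled CPM on a log axis, with bars for the 95% Poisson interval of the count; dotted lines part the 4 groups. Both genes stand above 37 CPM in Co-H 2 and Co-H 3 and below 3 CPM in every other library.

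Against the Co-L mean of 0.955 ± 0.407 CPM (SD, n = 3), ENSBTAG00000006541 stood 39.4-fold higher in Co-H 2, 39.3-fold higher in Co-H 3 and 1.47-fold higher in Co-H 1. Against a Co-L mean of 1.87 ± 0.490 CPM (SD, n = 3), ENSBTAG00000006790 stood 34.6-fold, 34.4-fold and 1.55-fold higher in the same libraries. The 3 Co-H libraries lay above the 3 Co-L libraries for both genes, as they did for 9.67% of all genes tested, but the gap at Co-H 1 was within counting error. For ENSBTAG00000006541 the 95% Poisson interval of Co-H 1 was 0.783 to 2.31 CPM and that of Co-L 1 was 0.737 to 1.97 CPM. For ENSBTAG00000006790 they were 1.96 to 4.10 and 1.63 to 3.28 CPM. These intervals cover the counting error of reads only. Reads copied by PCR are not independent molecules, so the intervals may be too narrow even for counting error.

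The group difference therefore changed with the library left out. With all libraries, the log2 difference of Co-H from Co-L was 4.70 (SE 0.93) for ENSBTAG00000006541 and 4.54 (SE 0.91) for ENSBTAG00000006790. Without Co-H 1 it was 5.34 (SE 0.40) and 5.17 (SE 0.44). Without Co-H 3, the library labelled corpus luteum, it was 4.32 and 4.17, and without Co-H 2 it was 4.31 and 4.15. The high level was thus present in a library labelled ovary and in the one labelled corpus luteum, at nearly equal values.

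Co-H 2 and Co-H 3 differed by 0.0030 on the log2 scale for ENSBTAG00000006541 and by 0.0096 for ENSBTAG00000006790. The Poisson intervals of both libraries overlapped widely, at 34.8 to 40.6 and 34.2 to 41.0 CPM for ENSBTAG00000006541 and at 61.0 to 68.6 and 59.98 to 68.9 CPM for ENSBTAG00000006790, so gaps this small are below what the counts resolve. The libraries themselves were not copies of each other. Compared gene by gene, their counts gave a chi-square of 15.0 per degree of freedom, the lowest of the 12 pairs within groups, where sampling noise alone gives about 1.

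In endometrium both genes were low, ENSBTAG00000006541 within the range of the Co-L libraries and Co-H 1 together and ENSBTAG00000006790 mostly below it. ENSBTAG00000006541 had 20, 10 and 6 reads in T-L 1, 2 and 3 (1.29, 0.583 and 0.536 CPM) and 10, 18 and 18 reads in T-H 1, 2 and 3 (0.887, 1.18 and 1.36 CPM). ENSBTAG00000006790 had 26, 15 and 3 reads in T-L (1.67, 0.874 and 0.268 CPM) and 8, 18 and 9 reads in T-H (0.710, 1.18 and 0.679 CPM). The T-L and T-H libraries overlapped for both genes.

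Ordered by mean, ENSBTAG00000006541 was highest in Co-H (25.5 ± 20.9 CPM), then T-H (1.14 ± 0.237), Co-L (0.955 ± 0.407) and T-L (0.802 ± 0.421, SD, n = 3 each). ENSBTAG00000006790 was highest in Co-H (44.0 ± 35.6 CPM), then Co-L (1.87 ± 0.490), T-L (0.939 ± 0.705) and T-H (0.855 ± 0.279). For ENSBTAG00000006541 the ranges of T-H, Co-L and T-L overlapped one another. For ENSBTAG00000006790 the range of T-L overlapped those of T-H and Co-L. Its T-H libraries lay at 0.679 to 1.18 CPM and its lowest Co-L library at 1.37 CPM. How many of all genes lie apart like this between the tissues was not counted, so it is not read as particular to this gene.

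The T libraries had no part in choosing the genes, so the fertility contrast there could be tested. Neither gene passed. For ENSBTAG00000006541 the log2 difference of T-H from T-L was 0.49 (SE 0.95, 95% confidence interval −1.59 to 2.58, edgeR adjusted p = 1 by the quasi-likelihood test with Benjamini-Hochberg adjustment). For ENSBTAG00000006790 it was −0.16 (SE 1.03, interval −2.42 to 2.09, edgeR adjusted p = 1), and it turned to 0.49 without T-L 1. Of all 14839 genes, 0% were called in this contrast (0 genes in edgeR, 608 at an unadjusted p under 0.05).

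This model shares its spread over all 12 libraries, among them the Co-H libraries that differed so much, and the intervals were narrower without the Co libraries. Fitted on the 6 T libraries alone, where edgeR called 1 of 14110 genes, the interval was −0.53 to 1.53 for ENSBTAG00000006541 (edgeR adjusted p = 0.927) and −1.58 to 1.27 for ENSBTAG00000006790 (edgeR adjusted p = 0.980). On the linear scale these intervals end at 2.88-fold and 2.42-fold higher in T-H. In the fit on all 12 libraries the T intervals end at 5.98-fold and 4.26-fold. The Co-H against Co-L intervals of that fit, given as a description, begin at 6.28-fold and 5.83-fold. Differences inside the T intervals are not excluded. In T the counts were only 3 to 26 reads per gene and library.

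How closely the genes followed each other can be read from the split of their reads within each library, which needs no scaling. In Co the share of the 2 genes' reads that fell on ENSBTAG00000006541 was 34.6%, 37.5% and 26.3% in Co-L 1, 2 and 3, and 32.6%, 36.7% and 36.8% in Co-H 1, 2 and 3. The 95% Clopper-Pearson interval was 34.5% to 39.0% in Co-H 2 and 34.2% to 39.5% in Co-H 3. It reached from 9.15% to 51.2% in Co-L 3, which had 19 reads in all. The split was nearly the same in the libraries with a high level as in those with a low one, within counting error.

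In T a greater share of the reads fell on ENSBTAG00000006541. ENSBTAG00000006541 took 43.5%, 40.0% and 66.7% of the reads of both genes in T-L 1, 2 and 3, and 55.6%, 50% and 66.7% in T-H 1, 2 and 3. Every T library lay above every Co library, but single T libraries were imprecise. The 95% Clopper-Pearson interval ran from 28.9% to 58.9% in T-L 1, where the reads of both genes were most, and from 29.9% to 92.5% in T-L 3, where they were fewest. In T-H 3 it was 46.0% to 83.5%, the only one of the 6 that left out the Co share over all reads, 36.6%. The T share over all reads was 50.9%, from 82 reads of ENSBTAG00000006541 and 79 of ENSBTAG00000006790. The mean log2 ratio of ENSBTAG00000006541 to ENSBTAG00000006790 (counts plus 0.5) was −0.93 ± 0.25 (SD, n = 6) in Co and 0.20 ± 0.64 (SD, n = 6) in T. Each library weighed the same in these means, whatever its number of reads. The difference was 1.14, a 2.20-fold change of the ratio (exact permutation test over libraries, two-sided, p = 0.00216, the smallest that the 924 splits can give). The Co counts in this ratio are also those that chose the pair, so the test is not independent of that choice. Its p-values, here and with libraries left out, are therefore a description only.

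**Figure D2:**
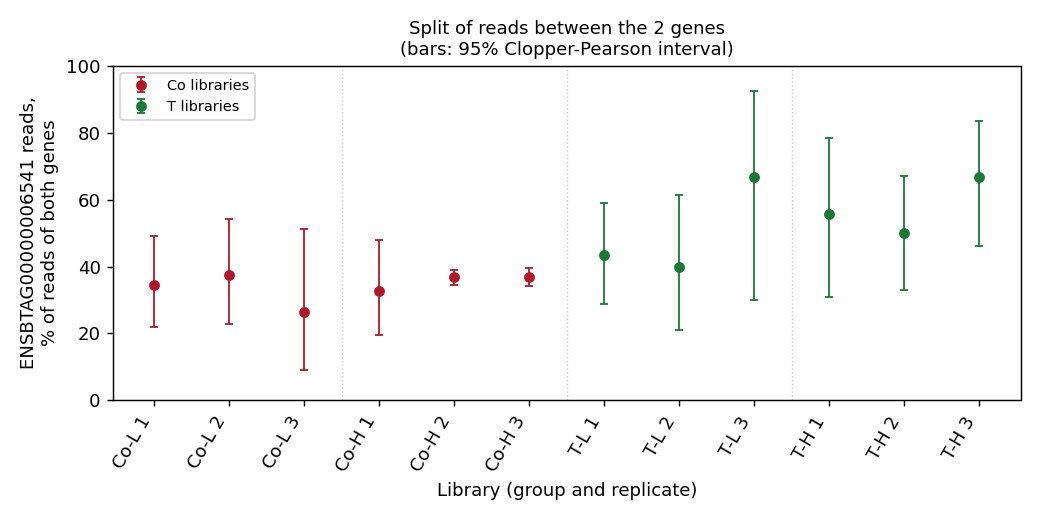
Share of the reads of both genes that fell on ENSBTAG00000006541, in percent, for each of the 12 libraries, with bars for the 95% Clopper-Pearson interval. The 6 Co libraries lie between 26.3% and 37.5% and the 6 T libraries between 40.0% and 66.7%.

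The difference of the log2 ratio stayed between 0.99 and 1.29 with each library left out in turn (exact permutation p = 0.00216 to 0.00649). It was 1.00 without T-L 3, the library with the fewest reads of both genes, and 1.17 without Co-H 3. Over the 6 T libraries the log2 CPM of the genes had a Pearson's r of 0.65 (exact permutation p = 0.165) and a Spearman's rho of 0.37 (exact permutation p = 0.497). This relation was chosen after the values were seen, so its p-values are unadjusted and serve as a description only. Without T-L 2 and T-L 3, the libraries farthest from the median of ENSBTAG00000006541, r was 0.36 over the 4 left. Leaving out the extremes of a gene narrows its range, which tends to lower r, so nothing is concluded from the drop. The 6 Co libraries form separate clusters, 4 low and 2 high, so no pooled correlation was tested in Co.

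The other genes were then ordered by how far their profile over the 6 Co libraries lay from that of the pair. The measure was the root mean square difference of log2 CPM, each gene first centred on its own mean over Co. On this measure the pair lay 0.189 apart, and each was the other's nearest gene. The next nearest lay 0.495 from ENSBTAG00000006541 and 0.359 from ENSBTAG00000006790. The pair was chosen on these libraries, as genes that were both high in Co-H, so this closeness is a description. Of the 147 genes, the pair included, whose levels ranged over Co at least as widely as those of ENSBTAG00000006790, 4 had a nearest gene closer than 0.189.

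Within a distance of 1 of the mean profile of the pair lay 42 other genes, 0.283% of those tested, called followers here. They shared the pattern by construction, since these libraries chose them. Their median level was 1.42, 1.51 and 0.979 CPM in Co-L 1, 2 and 3, and 1.31, 17.7 and 17.6 CPM in Co-H 1, 2 and 3. Between the fertility groups in Co, edgeR called 30 of the 42 higher and 0 lower in Co-H at an adjusted p under 0.05, where it called 2.46% of all genes higher and 2.32% lower, and nothing can be read from this, since the followers were chosen on the same libraries.

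**Figure D3:**
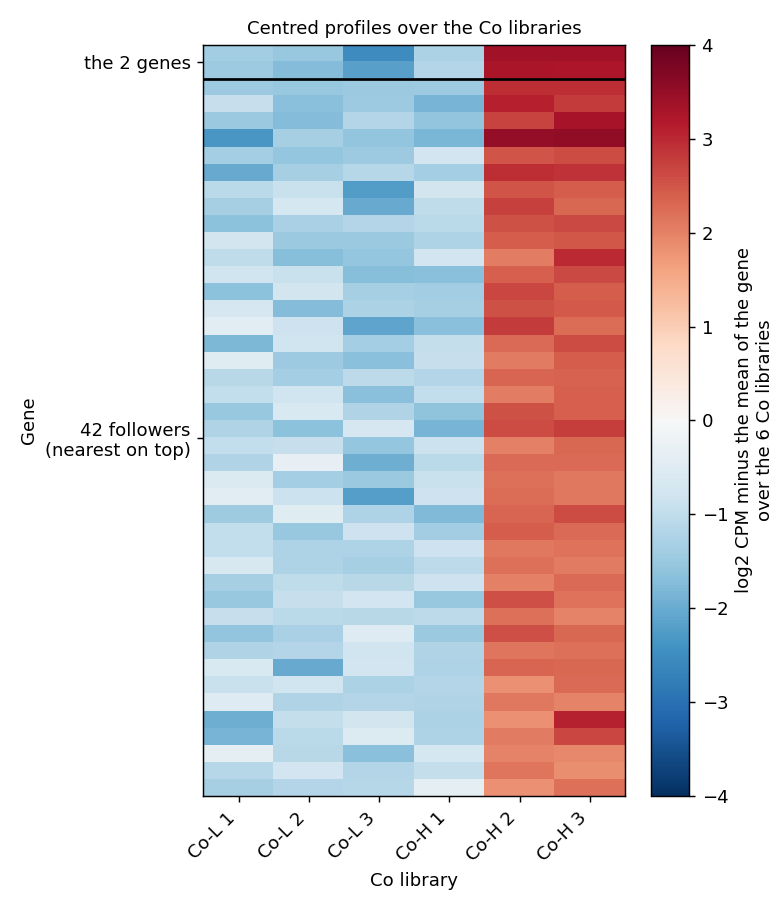
Log2 CPM of the pair (top) and of the 42 followers in the 6 Co libraries, each gene minus its own mean over them, with the nearest follower on top and red for levels above the mean. Co-H 2 and Co-H 3 are above the mean in every row, and Co-H 1 is below it beside the 3 Co-L libraries.

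For the pair, Co-H 1 lay above all 3 Co-L libraries, by a gap within counting error. All 3 Co-H libraries lay above the Co-L libraries in 9 of the 42 followers (21.4%), against 9.67% of all genes tested, from which nothing is read since these libraries chose the followers. In the others Co-H 1 lay below all 3 Co-L libraries (5 genes) or between them (28 genes). Most followers spanned a smaller range. The highest Co library exceeded the lowest by 59.2-fold for ENSBTAG00000006541 and 42.7-fold for ENSBTAG00000006790 on the log2 CPM scale with a prior count of 2, against a median of 18.3-fold for the followers. The 1 follower with a range at least as wide as that of ENSBTAG00000006790, named after its values were seen, was ENSBTAG00000002321, at 58.9-fold, with 52.1 and 53.4 CPM in Co-H 2 and Co-H 3 and 0.760 to 1.66 CPM in the other Co libraries.

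The nearest follower was ENSBTAG00000011689, at a distance of 0.422. It had 15.8, 15.3 and 15.7 CPM in Co-L 1, 2 and 3, and 16.1, 338 and 344 CPM in Co-H 1, 2 and 3. It was the most even of the named genes among the low libraries, with Co-L at 15.6 ± 0.261 CPM (SD, n = 3), and it stood 21.7-fold and 22.0-fold above that mean in Co-H 2 and Co-H 3. Unlike the pair it was well above its Co-L level in T, at 35.4, 36.3 and 34.0 CPM in T-L and 47.4, 41.0 and 32.9 CPM in T-H. Its T-L and T-H libraries overlapped (log2 difference 0.20, SE 0.70, edgeR adjusted p = 1).

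The second nearest was ENSBTAG00000001796, at a distance of 0.545. It had 1.73, 0.981 and 1.17 CPM in Co-L and 0.840, 30.7 and 24.9 CPM in Co-H. Here Co-H 1 was the lowest of all Co libraries. In T it had 3.03, 1.81 and 2.14 CPM in T-L and 1.51, 1.96 and 1.81 CPM in T-H, again overlapping (log2 difference −0.40, SE 0.84, edgeR adjusted p = 1).

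The number of followers depended on single libraries. It was 89 without Co-L 3, 82 without Co-H 2 and 70 without Co-H 3, and 42 to 51 without each of the others. Of the 42 genes, 41, 42 and 40 were among those 89, 82 and 70. Without Co-H 1 the number was again 42, of which 32 were among the 42 found with all libraries.

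The shape of the profile was common, and its size was not. Pearson's r over the 6 Co libraries, given as a description since it rests on the gap of Co-H 2 and Co-H 3 from the other 4, was at least 0.95 with both genes for 691 others (4.66%) and at most −0.95 for 496 (3.34%). Of the 42 followers 36 (85.7%) were among the 691, which makes 5.21% of the 691. The median range of the 691 over Co was 2.83-fold, against 1.93-fold for all genes tested. The range was at least as wide as that of ENSBTAG00000006790 in 1 of the 691, again ENSBTAG00000002321.

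**Figure D4:**
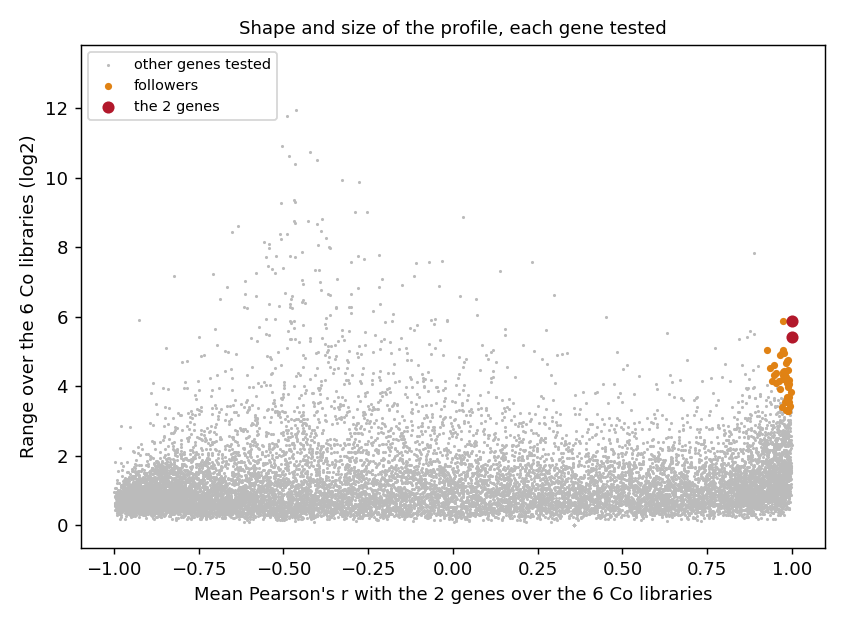
For each gene tested, the mean of its Pearson's r with the 2 genes over the 6 Co libraries against its range over them on the log2 scale. The pair lies at the right edge at 5.89 and 5.42, the 42 followers between 3.30 and 5.88, and most other genes of like shape far lower, with a median of 1.502 among the 691.

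Few genes had the pair's profile in reverse at like size. The mirror image of the profile was matched within a distance of 1 by 1 gene, ENSBTAG00000017969, at 0.907. It had 62.5, 22.2 and 128 CPM in Co-L 1, 2 and 3, and 22.0, 4.65 and 1.97 CPM in Co-H 1, 2 and 3. Co-L 2 and Co-H 1 were nearly equal, so its groups met at that level. The number of such genes was 0 to 4 with each Co library left out in turn and 0 on unadjusted library totals.

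The next nearest to the mirror image was ENSBTAG00000022590, at 1.21. It had 577, 131 and 667 CPM in Co-L 1, 2 and 3, and 336, 47.8 and 49.7 CPM in Co-H 1, 2 and 3, so that its Co-L and Co-H libraries overlapped. In T it had 398, 163 and 733 CPM in T-L and 116, 60.2 and 83.6 CPM in T-H, where every T-H library lay below every T-L library, as they did for 5.30% of all genes. The log2 difference in T was −2.32 (SE 0.84) and did not pass (unadjusted p = 0.0185, edgeR adjusted p = 1, and 0.507 on the 6 T libraries alone). For ENSBTAG00000017969 it was −0.53 (SE 0.77, edgeR adjusted p = 1), with 8.63, 10.9 and 5.18 CPM in T-L and 5.32, 6.67 and 5.13 CPM in T-H.

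The T libraries had no part in choosing the followers. Their median level was 2.99, 3.002 and 2.14 CPM in T-L 1, 2 and 3, and 2.71, 3.17 and 2.60 CPM in T-H 1, 2 and 3. Of the 42, edgeR called 0 in T-H against T-L, as it did 0% of all genes, so this count says nothing particular to them. An unadjusted p under 0.05 was found for 0 of the 42 and for 608 of the 14839. Nothing is read from this, since the fit on all libraries takes part of its error from the Co-H libraries. The followers were chosen for levels far apart within Co-H, which widens that error. For ENSBTAG00000011689 the SE in T was 0.698 in this fit and 0.147 in the fit on the T libraries alone. How many followers pass in the latter fit is not given here. The median log2 difference of the followers was 0.086, against 0.0053 over all genes tested, and it lay between −0.88 and 1.01 in the single followers. All 3 T-H libraries lay above the T-L libraries in 3 of the 42 (7.14%) and below them in 0, where 5.05% of all genes were above and 5.30% below.

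**Figure D5:**
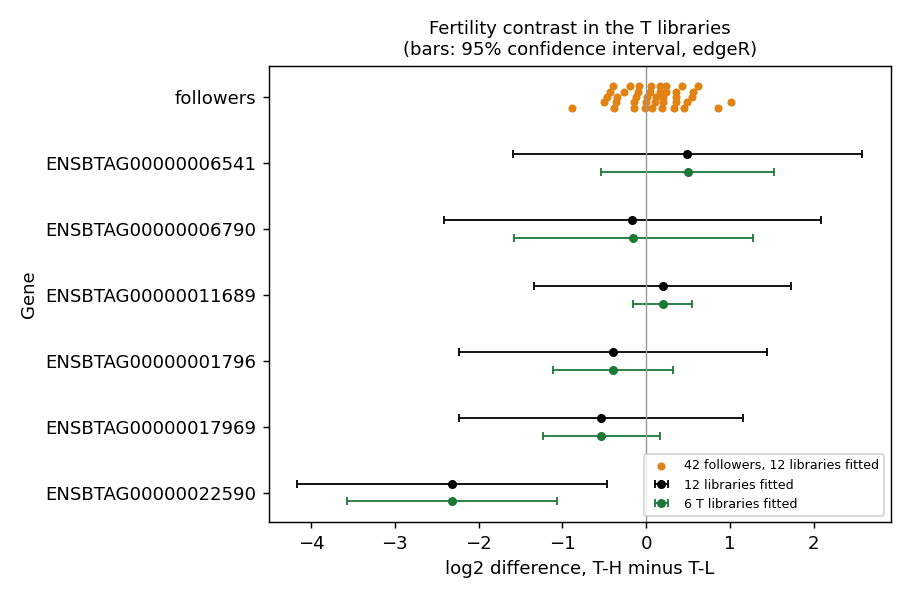
Log2 difference of T-H from T-L for the 42 followers (points) and for the 6 named genes with 95% confidence intervals from edgeR, fitted on all 12 libraries (black) or on the 6 T libraries (green). The intervals of the pair include 0 in both fits, and the followers lie between −0.88 and 1.01.

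Between the tissues the followers and the pair stood differently. The T mean was above the Co-L mean in 34 of the 42 followers and below it in 8, with a median log2 ratio of 0.95 (CPM plus 0.1) against 0.0029 over all genes tested. For ENSBTAG00000006541 the T mean was 0.972 ± 0.358 CPM (SD, n = 6), close to the Co-L mean of 0.955, and for ENSBTAG00000006790 it was 0.897 ± 0.482 CPM (SD, n = 6), below the Co-L mean of 1.87. The followers were chosen in part for low Co-L levels relative to Co-H 2 and Co-H 3, so this comparison is a description.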

How the data were processed

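Each library has a deposited file of raw counts, whole reads per gene, with genes under cattle identifiers per the file headers. Reads were aligned with Bowtie 0.12.2 per the submitters' processing notes, where bosTau8 is named for 7 libraries. The sources used here do not give the counting tool, annotation, strand setting or filters, so reads shared with near-identical or overlapping genes cannot be told apart. A blank line in 1 file was ignored, and the first gene of T-H 3 was read from its header line. Libraries were grouped by title.

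The analysis used edgeR 4.0.16 in R 4.3.3 (filterByExpr at a minimum count of 10, TMM scaling, 1 mean per group over all 12 libraries, quasi-likelihood test, Benjamini-Hochberg adjustment over 14839 genes, calls under 0.05). SEs were taken as the log2 difference over the root of the test statistic. Profiles used log2 CPM with a prior count of 2. Total counts of 9627378 to 17852552 set the precision. Each library was counted as 1 replicate. None of the 12 pairs within groups agreed within sampling noise (chi-square per degree of freedom of 15.0 to 114), and pairs across groups were not compared this way. That disagreement does not show that the libraries stem from different animals. Besides the pair, the rule named the 2 nearest genes to its profile and to the mirror image. The members, the lists and the tests were chosen with earlier results of these data known. Simulated counts held 200 changed genes, taken from those with a mean above 2 CPM over the 12 libraries. On these the T-H against T-L test recovered 18.5% at a 2-fold and 84.5% at a 4-fold change. The pair lay at 0.268 to 1.67 CPM in T, so these shares do not carry over to it. The alternatives were other scalings, filters, prior counts, pseudocounts and distances, DESeq2 1.42.0, limma-voom (limma 3.58.1), a replicate block, the T or Co libraries alone, and leaving out each library. The planned lists of cell type markers could not be applied without gene names.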

Additional observations from a re-analysis of the deposited data

How the results depend on the processing

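The pair was chosen on its Co-H against Co-L differences, so their direction could hardly turn, and it held under every alternative run. With each library left out, the differences were 4.31 to 5.34 for ENSBTAG00000006541 and 4.15 to 5.17 for ENSBTAG00000006790. In T neither gene passed under any alternative, DESeq2 and limma-voom included, and the log2 difference with each library left out was 0.29 to 1.00 for ENSBTAG00000006541 and −0.55 to 0.49 for ENSBTAG00000006790. With the replicate number as a block, the values were 0.56 and −0.012 in T and 3.99 and 3.85 in Co. The block thus lowered the Co differences, which carry no test, and it changed no call in T. The labels do not say what the numbers share. Deviations of same-numbered libraries correlated at 0.21, 0.019 and 0.25 in Co and at −0.071, −0.020 and −0.29 in T. Those of differently numbered libraries correlated at −0.34 to 0.081 in Co and at −0.12 to 0.18 in T. The Co values of 0.21 and 0.25 thus lay above every differently numbered Co pair. Whether the numbers mark something shared was not tested. The difference in the log2 ratio of the pair between T and Co was 1.03 to 1.17 with other pseudocounts. Its exact permutation p stayed under 0.05 in every alternative run. Each run reused Co counts that had chosen the pair, so nothing is read from that p. The followers numbered 42 to 89 with each Co library left out, 1 at a distance of at most 0.5 and 691 by Pearson's r of at least 0.95 with both genes. Genes that mirror the pair numbered 0 to 4 with each Co library left out, 0 at a distance of at most 0.5, 0 on unadjusted library totals and 496 by Pearson's r. A stricter or looser distance admits fewer or more genes by construction, and r ignores the size of the change. For single libraries the cause was not tested. The low counts of the pair outside Co-H 2 and Co-H 3, at most 34 reads per gene and library, limit what can be said of its level there.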
